A study of Mus musculus with 18 samples.

Results

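The transcripts described here are those of 10 genes that carry and receive the TGF-beta signal in cultures of mouse embryonic stem cells on their way to heart muscle. They are the ligand genes Tgfb1, Tgfb2 and Tgfb3, the receptor genes Tgfbr1, Tgfbr2 and Tgfbr3, and the latent binder genes Ltbp1, Ltbp2, Ltbp3 and Ltbp4. The members were chosen by symbol. All 10 were found among the 23337 gene symbols of the count table, and all 10 were among the 13116 genes with enough counts to be tested. The cells were untreated, of the line TBX5-FTA, and of the A2Lox.cre strain, an embryonic stem cell background built for inserting transgenes. These features were shared by all groups, so no group served as a control for the line. Poly(A) RNA was sequenced from cells labelled cardiac progenitors on days 5, 6 and 7 (D5, D6, D7) and from cells labelled immature cardiomyocytes on days 8, 10 and 15 (D8, D10, D15). Each day had 3 libraries, 18 in all, with total counts of 5257601 to 7122093. The labels do not tell whether the 3 libraries of each day were grown apart, and the p-values therefore speak only of library-to-library spread, part of which may be technical.

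TGF-beta is secreted as an inactive complex. A furin-type protease cuts the precursor, but the cut-off propeptide stays wrapped around the growth factor and holds it latent. Latent TGF-beta binding proteins fasten this complex to fibrillin and fibronectin in the matrix, from which integrins and proteases release it. Free ligand binds TGFBR2, a kinase that switches on TGFBR1, and TGFBR1 phosphorylates SMAD2 and SMAD3, which enter the nucleus with SMAD4. TGFBR3, or betaglycan, is a co-receptor without a kinase that hands ligand on, TGF-beta 2 above all. In the embryonic heart these signals are known for their part in the change of endocardium into valve mesenchyme, in the epicardium and in the making of matrix.

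Levels are in CPM, each library's counts scaled to the same size with edgeR's TMM factors, and a day is summarised by the mean ± SD over its 3 libraries. Changes are log2 fold changes ± SE from edgeR's quasi-likelihood test, with p-values adjusted by Benjamini-Hochberg over all genes tested. A gene was called higher or lower at an adjusted p under 0.05. Levels of different genes are compared only per length, as RPKM (CPM per kilobase of merged exons), while CPM follow a gene or a summed list over the days. In bulk RNA, fewer cells of a type and less RNA per cell cannot be told apart.

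All 10 members differed across the 6 days by edgeR, at adjusted p from 6.79e-28 for Ltbp3 to 4.78e-07 for Tgfbr3. Of all genes tested, 88.9% did so. Between D5 and D15, 8 members were higher, Tgfb2 was lower, and Tgfbr1 did not pass (log2 fold change -0.13 ± 0.07, adjusted p = 0.0763). Against this, 78.0% of all genes were called, 40.3% higher and 37.7% lower. The median change of the members was 3.77, beside 0.03 over all genes tested. Between the mean of D8, D10 and D15 and the mean of D5, D6 and D7, 7 members were higher and Tgfb2 and Tgfbr1 were lower, beside 77.1% of all genes called, 39.3% higher and 37.8% lower. Tgfbr3 did not pass there (0.14 ± 0.10, adjusted p = 0.225).

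**Figure D1:**
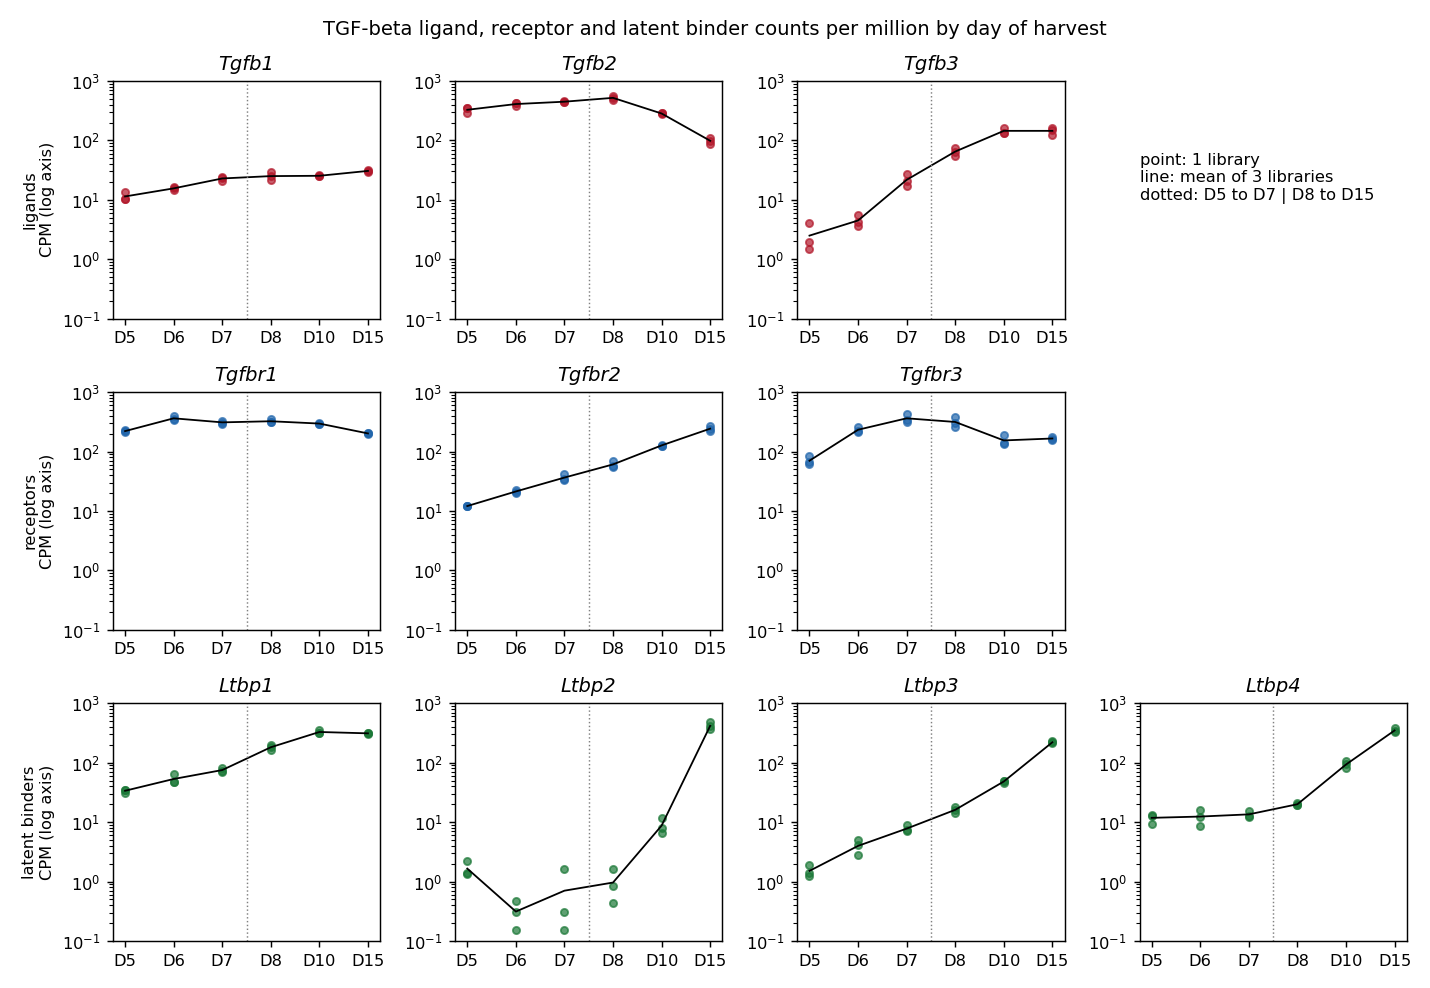
CPM on a log axis against day of harvest (days evenly spaced) for each of the 10 genes. Points are single libraries, lines join the means of 3 libraries, and the dotted line parts D5 to D7 from D8 to D15. Tgfb2 peaks at D8, at 521 CPM, and falls to 98.7 CPM at D15. Ltbp2 goes from under 2 CPM on average through D8 to 418 CPM at D15.

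The timing differed between members. From D5 to D6, 7 members rose and Ltbp2 fell (of all genes 34.6% were called, 18.2% higher and 16.4% lower). From D6 to D7, 6 rose and Tgfbr1 fell (30.4% of all genes called, 15.1% higher and 15.3% lower). From D7 to D8, where the name of the cells changes, 6 rose (24.2% of all genes called, 12.6% higher) and none fell by edgeR, by DESeq2, by limma-voom or at an unadjusted p under 0.05, a count of 0 in each case, beside 11.6% of all genes called lower. From D8 to D10, 6 rose and Tgfb2 and Tgfbr3 fell (31.2% of all genes called, 17.3% higher and 13.9% lower). From D10 to D15, 4 rose, namely Tgfbr2, Ltbp2, Ltbp3 and Ltbp4, and Tgfb2 and Tgfbr1 fell (50.8% of all genes called, 26.4% higher and 24.4% lower). Of all genes called in that last step 52.0% were higher, or 38.9% when libraries were scaled by total counts alone. Tgfbr2 and Ltbp3 rose at all 5 steps, and their libraries did not overlap between any neighbouring harvests. How many of all genes did the same was not counted. Similar courses were common among 6191 other genes with day means at least 1 log2 unit apart. Over the 18 libraries, 1077 of them had a Pearson correlation of at least 0.9 with Tgfbr2 and 1121 with Ltbp3.

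**Figure D2:**
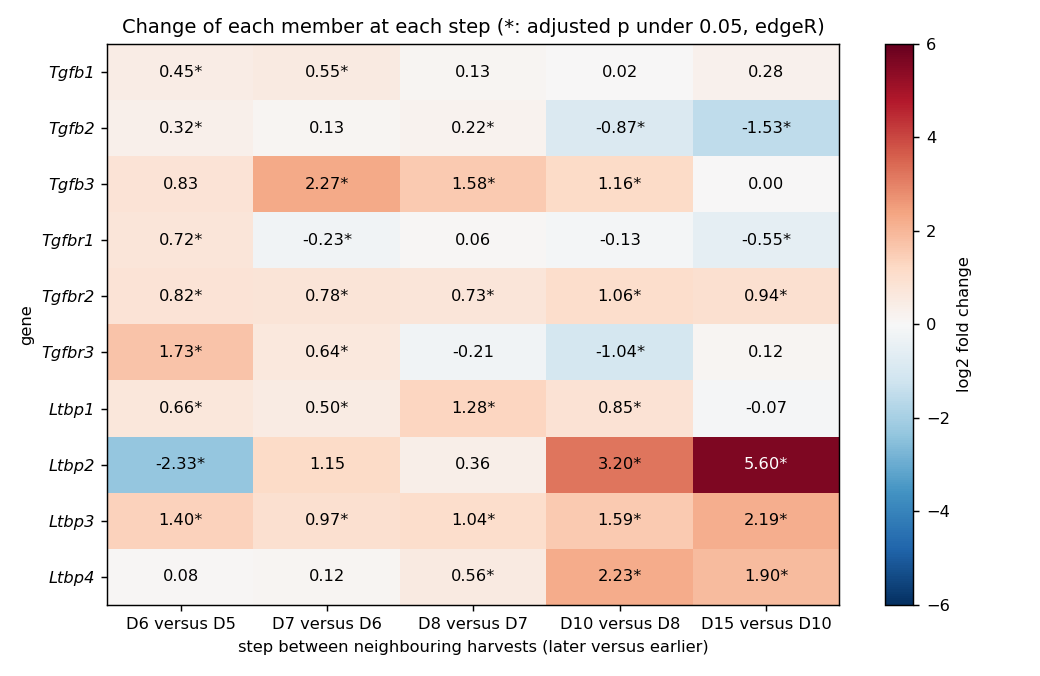
Log2 fold change of each gene (rows) at each of the 5 steps between neighbouring harvests (columns), coloured from blue for lower to red for higher. An asterisk marks an adjusted p under 0.05 by edgeR. The darkest cell is Ltbp2 from D10 to D15, at 5.60, and the Tgfb2 row turns from red to blue after D8.

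The ligand genes took different courses. Tgfb2 (mm10 chromosome 1, 186622792 to 186705989, minus strand) is the ligand gene whose loss in mice is known for heart septum and valve defects. From low to high within each day, its 3 libraries held, in CPM, 287, 348 and 350.4 at D5, 378, 425 and 426 at D6, 445, 448 and 455 at D7, 480.0, 527 and 557 at D8, 279, 285 and 289 at D10 and 88.0, 96.1 and 112 at D15. All D15 libraries lay below all others, all D8 libraries lay above all others, and D10 overlapped only D5. Tgfb2 rose by 0.32 ± 0.08 from D5 to D6 (adjusted p = 0.00189). It then fell by 0.87 ± 0.08 from D8 to D10 (adjusted p = 7.81e-10) and by 1.53 ± 0.08 from D10 to D15 (adjusted p = 6.93e-15). Over the whole span it fell by 1.74 ± 0.08, or 3.33-fold (adjusted p = 4.48e-17). The small rise of 0.22 ± 0.08 from D7 to D8 (adjusted p = 0.0407) was not called without any single D7 library, without the libraries MR28 or MR29 of D8 or MR32 of D10, or with scaling by total counts (0.17 to 0.22, adjusted p 0.0503 to 0.181). Libraries are named here by the code in their column names.

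Tgfb3 (chromosome 12, 86056745 to 86079041, minus strand), the ligand gene known for palate fusion, rose at each step from D6 to D10. CPM of Tgfb3 in the 3 libraries of each day were 1.46, 1.96 and 4.09 at D5, 3.68, 4.28 and 5.51 at D6, 16.9, 21.0 and 27.2 at D7, 55.4, 64.8 and 74.7 at D8, 136, 136 and 163 at D10 and 125, 150.5 and 159 at D15. The values climbed in 4 levels, with D5 and D6 overlapping and D10 and D15 overlapping. It rose by 2.27 ± 0.27 from D6 to D7 (adjusted p = 6.23e-06), by 1.58 ± 0.18 from D7 to D8 (adjusted p = 6.11e-06) and by 1.16 ± 0.16 from D8 to D10 (adjusted p = 2.49e-05). D15 and D10 then had equal means of 145 CPM. Over the span the change was 5.83 ± 0.24, or 56.9-fold (adjusted p = 3.46e-13). The exons of Tgfb3 share 420 bases with 2 predicted genes on the other strand, and the sources used here do not say whether strand was used in counting. The step from D5 to D6, 0.83 ± 0.40, did not pass (adjusted p = 0.120), but passed in DESeq2 (adjusted p = 0.0152) and without MR21 of D5 (1.38 ± 0.41, adjusted p = 0.0147).

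Tgfb1 (chromosome 7, 25687002 to 25705077, plus strand) encodes the form best known from immune regulation and fibrosis. Its libraries held, in CPM, 10.2, 10.3 and 13.7 at D5, 14.5, 15.9 and 16.5 at D6, 20.7, 23.2 and 24.6 at D7, 21.6, 24.9 and 28.9 at D8, 24.9, 25.5 and 25.7 at D10 and 29.8, 30.7 and 31.7 at D15. These values rose slowly, with D7, D8 and D10 overlapping in turn. The change from D5 to D15 was 1.43 ± 0.14, or 2.69-fold (adjusted p = 1.82e-10). Of the steps, D6 to D7 rose by 0.55 ± 0.14 (adjusted p = 0.0029) and D5 to D6 by 0.45 ± 0.15 (adjusted p = 0.017). The latter was not called without MR19 or MR21 of D5 or MR24 of D6 (0.38 to 0.42, adjusted p 0.0586 to 0.0831).

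The starts of Tgfb1 and Tgfb2 differ in their letters, and are shown because these ligand genes moved in opposite directions between D5 and D15. Those of Ltbp2 and Ltbp3 are shown because these genes had the largest rises. Each is given 5′ to 3′ on the strand of its gene and ends just before the start site, from the RefSeq promoter table on GRCm38.p6. The Ltbp2 stretch ends before the more upstream GENCODE start. Capitals mark TATAAA (the TATA box), GGGCGG (the GC box, bound by SP1) and CAGAC (the letters that SMAD3 and SMAD4 bind), each on either strand.
Tgfb1 (chr7:25686752-25687001, plus strand): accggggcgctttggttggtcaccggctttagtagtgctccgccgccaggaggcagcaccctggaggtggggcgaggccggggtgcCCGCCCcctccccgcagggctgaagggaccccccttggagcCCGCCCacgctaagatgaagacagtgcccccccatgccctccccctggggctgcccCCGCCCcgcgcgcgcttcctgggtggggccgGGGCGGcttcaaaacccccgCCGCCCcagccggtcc
Tgfb2 (chr1:186705990-186706239, minus strand): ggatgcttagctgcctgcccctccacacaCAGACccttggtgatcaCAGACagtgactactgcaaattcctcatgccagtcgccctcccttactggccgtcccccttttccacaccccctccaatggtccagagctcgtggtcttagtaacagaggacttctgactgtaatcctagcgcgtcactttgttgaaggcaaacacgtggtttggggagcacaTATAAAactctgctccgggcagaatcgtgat
Ltbp2 (chr12:84876533-84876741, minus strand): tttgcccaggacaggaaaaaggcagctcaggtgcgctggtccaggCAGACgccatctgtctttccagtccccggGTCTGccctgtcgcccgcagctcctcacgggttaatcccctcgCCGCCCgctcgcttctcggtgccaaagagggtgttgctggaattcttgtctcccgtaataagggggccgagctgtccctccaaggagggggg
Ltbp3 (chr19:5740650-5740899, plus strand): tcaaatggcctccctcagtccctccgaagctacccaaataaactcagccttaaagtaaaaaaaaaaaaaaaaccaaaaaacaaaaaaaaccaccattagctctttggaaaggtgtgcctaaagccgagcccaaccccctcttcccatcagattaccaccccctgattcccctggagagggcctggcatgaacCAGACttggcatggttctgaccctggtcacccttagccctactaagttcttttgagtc

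Of the 10 members, 8 had an entry in the promoter table, with 12 start sites between them. Tgfb3 and Tgfbr3 had none. In the 250 bases before the start, Tgfb2 was the only member with TATAAA, which began 31 bases before the start site. Of all 32851 such windows, 12.4% held it. Tgfb1 held GGGCGG 5 times and Ltbp2 2 times, 1 of them in the printed stretch, and it was in 6 of the 12 member windows, of Tgfb1, Ltbp2, Ltbp4 and Tgfbr1, and in 32.7% of all windows. CAGAC was in 7 of the 12 member windows and in 42.2% of all windows, with 2 matches each in Tgfb2 and Ltbp2, 1 in Ltbp3 and none in Tgfb1. TGANTCA, the AP-1 site, was in none of the 12 and in 6.75% of all windows. GGGTGGTC, the core of the GLI site, was in none and in 0.703%. CCAAT was in 5 of 12 (33.8% of all), CANNTG, the E-box, in 8 of 12 (66.2%), and TGACGTCA, the cAMP response element, in 1 of 12 (1.55%), the upstream start of Ltbp1. All were searched on both strands, and matches of different motifs were counted whether or not they shared bases. The Ltbp4 windows of the start sites 27333648 and 27333663 overlapped, so matches in their shared bases were counted in both. The motifs were chosen after these windows had been read. Such matches describe the letters of these windows alone.

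The receptor genes also diverged. Tgfbr2 (chromosome 9, 116084293 to 116175360, minus strand), the ligand-binding kinase gene, was the receptor gene with the largest change. Its libraries held, in CPM, 11.9, 12.1 and 12.3 at D5, 20.0, 21.1 and 22.8 at D6, 33.4, 33.9 and 42.3 at D7, 55.3, 57.9 and 69.1 at D8, 124, 126 and 130.2 at D10 and 221, 236 and 273 at D15. Every day lay wholly above the day before. The steps were 0.82 ± 0.13, 0.78 ± 0.11, 0.73 ± 0.10, 1.06 ± 0.09 and 0.94 ± 0.09 in order, with adjusted p from 2.95e-10 to 1.20e-05. From D5 to D15 it rose by 4.33 ± 0.11, or 20.1-fold (adjusted p = 5.08e-24).

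Tgfbr1 (chromosome 4, 47353222 to 47414931, plus strand), the partner kinase gene, varied least of the 10. Its day means spanned 0.84 log2 units. CPM of Tgfbr1 in the 3 libraries of each day were 213, 219 and 231 at D5, 345, 347 and 396 at D6, 295, 304 and 331 at D7, 311, 312 and 348 at D8, 289, 292 and 308 at D10 and 198, 202 and 205 at D15. D6 was the day with the highest mean and D15 the lowest, and D6, D7, D8 and D10 overlapped in the chain of their order. It rose by 0.72 ± 0.07 from D5 to D6 (adjusted p = 9.48e-10) and fell by 0.55 ± 0.07 from D10 to D15 (adjusted p = 5.44e-08). The fall of 0.23 ± 0.07 from D6 to D7 (adjusted p = 0.00838) was not called without MR22 of D6 or MR27 of D7 (-0.16 and -0.19, adjusted p = 0.0983 and 0.0524). D15 against D5 passed with upper quartile factors (-0.16, adjusted p = 0.0307), with total counts alone (-0.29, adjusted p = 0.000222) and in a fit of these days alone (-0.15, adjusted p = 0.0343).

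Tgfbr3 (chromosome 5, 107106570 to 107289629, minus strand), the betaglycan gene, rose and fell again. CPM of Tgfbr3 in the 3 libraries of each day were 62.2, 65.6 and 82.8 at D5, 211, 226 and 261 at D6, 318, 339.9 and 432 at D7, 263, 307 and 375 at D8, 132, 137 and 193 at D10 and 156, 163 and 179 at D15. The D5 libraries were the lowest, D7 and D8 overlapped at the top, and D10 and D15 overlapped between. It rose by 1.73 ± 0.19 from D5 to D6 (adjusted p = 9.04e-06) and fell by 1.04 ± 0.18 from D8 to D10 (adjusted p = 0.000617). At D15 it was still 1.24 ± 0.19 above D5 (adjusted p = 4.03e-05). The rise of 0.64 ± 0.17 from D6 to D7 (adjusted p = 0.0128) was not called without MR23 of D6 or MR27 of D7 (0.58 and 0.50, adjusted p = 0.0548 and 0.0583).

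The latent binder genes Ltbp2 and Ltbp3 had the largest changes of the 10 between D5 and D15. Ltbp2 (chromosome 12, 84783212 to 84876532, minus strand) belongs to the family by structure, but its protein is known for binding fibrillin rather than latent TGF-beta. CPM of Ltbp2 in the 3 libraries of each day were 1.36, 1.40 and 2.18 at D5, 0.153, 0.306 and 0.476 at D6, 0.155, 0.309 and 1.64 at D7, 0.436, 0.830 and 1.62 at D8, 6.56, 7.83 and 11.8 at D10 and 369, 407 and 477 at D15. D15 stood far above all other days, D10 stood above the earlier 4, and D6, D7, D8 and D5 overlapped in turn at a few counts per library. Summed over the 3 libraries of a day there were 35 counts at D5, 6 at D6, 14 at D7, 17 at D8, 150 at D10 and 7326 at D15. It rose by 3.20 ± 0.44 from D8 to D10 (adjusted p = 2.14e-05) and by 5.60 ± 0.19, or 48.4-fold, from D10 to D15 (adjusted p = 7.43e-14). From D5 to D15 the change was 7.98 ± 0.24, or 252-fold (adjusted p = 1.16e-15). Its exons share 764 bases with D030025P21Rik on the other strand, which had 1.50 ± 0.583 CPM at D15. The fall of 2.33 ± 0.79 from D5 to D6 (adjusted p = 0.0258) was not called without MR19 of D5 or MR22 or MR23 of D6 (-2.32 to -2.02, adjusted p 0.0761 to 0.0952), nor with no filter (adjusted p = 0.0526).

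Ltbp3 (chromosome 19, 5740904 to 5758532, plus strand), whose protein binds the latent forms of TGF-beta, rose at every step. Its libraries held, in CPM, 1.23, 1.40 and 1.89 at D5, 2.75, 4.12 and 5.05 at D6, 7.13, 7.25 and 8.93 at D7, 14.2, 16.0 and 18.1 at D8, 45.8, 49.4 and 49.7 at D10 and 213, 219 and 231 at D15. No neighbouring days overlapped. The steps were 1.40 ± 0.26, 0.97 ± 0.19, 1.04 ± 0.15, 1.59 ± 0.12 and 2.19 ± 0.10 in order, with adjusted p from 2.06e-17 to 0.000230. From D5 to D15 it rose by 7.19 ± 0.15, or 146-fold (adjusted p = 8.61e-26).

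Ltbp4 (chromosome 7, 27305136 to 27337692, minus strand), the binder known for its bond to latent TGF-beta 1 and its part in elastic fibres, stayed low through D7. CPM of Ltbp4 in the 3 libraries of each day were 9.31, 12.8 and 13.1 at D5, 8.72, 12.3 and 16.2 at D6, 12.2, 12.7 and 15.6 at D7, 19.5, 19.6 and 20.8 at D8, 79.9, 95.1 and 105 at D10 and 323, 345 and 378 at D15. D5, D6 and D7 overlapped, and each later day lay above the day before. It rose by 2.23 ± 0.14 from D8 to D10 (adjusted p = 6.21e-11) and by 1.90 ± 0.12 from D10 to D15 (adjusted p = 9.30e-12), and by 4.88 ± 0.14, or 29.5-fold, from D5 to D15 (adjusted p = 3.36e-18). The rise of 0.56 ± 0.17 from D7 to D8 (adjusted p = 0.0211) was not called without MR25 or MR27 of D7 or any single D8 library (0.49 to 0.58, adjusted p 0.0503 to 0.0857).

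Ltbp1 (chromosome 17, 75005568 to 75392512, plus strand), the binder gene first known of the family, rose earlier. Its libraries held, in CPM, 31.5, 34.5 and 35.2 at D5, 47.2, 47.7 and 64.8 at D6, 70.7, 73.4 and 81.4 at D7, 161, 186 and 199.9 at D8, 313, 321 and 353 at D10 and 301, 315 and 321 at D15. D10 and D15 overlapped, and the other neighbouring days did not. Its largest step was D7 to D8, at 1.28 ± 0.09 (adjusted p = 2.20e-10), where Ltbp2 had 0.36 ± 0.76 (adjusted p = 0.770). It rose by a further 0.85 ± 0.09 to D10 (adjusted p = 3.37e-08), and D15 against D10 was -0.07 ± 0.09 (adjusted p = 0.496). The change from D5 to D15 was 3.21 ± 0.10, or 9.26-fold (adjusted p = 8.13e-20).

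Per length, the make-up of each class changed over time. Summed RPKM of the 3 ligand genes was 59.7 ± 6.02 at D5, 114 ± 5.56 at D8 and 65.9 ± 3.30 at D15, so that the sums of the first and last day overlapped (52.8 to 63.4 and 62.2 to 68.6). Tgfb2 made up 94.9% ± 1.10 of the ligand sum at D5, 78.8% ± 2.69 at D8, 50.7% ± 2.32 at D10 and 26.0% ± 4.57 at D15 (SD, n = 3). Tgfb3 made up 1.30% ± 0.870 at D5 and 64.8% ± 4.97 at D15, and Tgfb1 3.80% ± 0.519 and 9.25% ± 0.490. In each D15 library Tgfb3 was the ligand gene with the highest RPKM, and in each library of D5 to D8 it was Tgfb2.

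Among the receptor genes Tgfbr1 made up 73.5% ± 2.77 of the RPKM at D5 and Tgfbr2 3.21% ± 0.109. At D15 the shares were 36.0% ± 1.66 for Tgfbr1, 34.5% ± 1.73 for Tgfbr2 and 29.5% ± 0.885 for Tgfbr3, and those of Tgfbr1 and Tgfbr2 overlapped between libraries. Tgfbr3 had its largest share, 51.5% ± 4.56, at D7. The latent binder sum went from 5.34 ± 0.273 RPKM at D5 through 22.0 ± 1.86 at D8 to 159 ± 6.87 at D15. Ltbp1 made up 77.3% ± 2.38 of it at D8 and 18.4% ± 0.245 at D15. At D15 Ltbp4 (34.0% ± 2.62) and Ltbp2 (32.1% ± 3.48) overlapped, above Ltbp1 and Ltbp3 (15.4% ± 0.745). With the longest transcript as the length in place of merged exons, the latent binder sum was 7.75 ± 0.368 RPKM at D5, 34.0 ± 2.93 at D8 and 212 ± 8.78 at D15, and the Tgfb1 share at D5 was 6.40%. The D15 shares were 16.1% for Tgfb1, 57.7% for Tgfb3, 22.1% for Ltbp1, 18.2% for Ltbp3, 30.6% for Ltbp4 and 29.1% for Ltbp2.

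**Figure D3:**
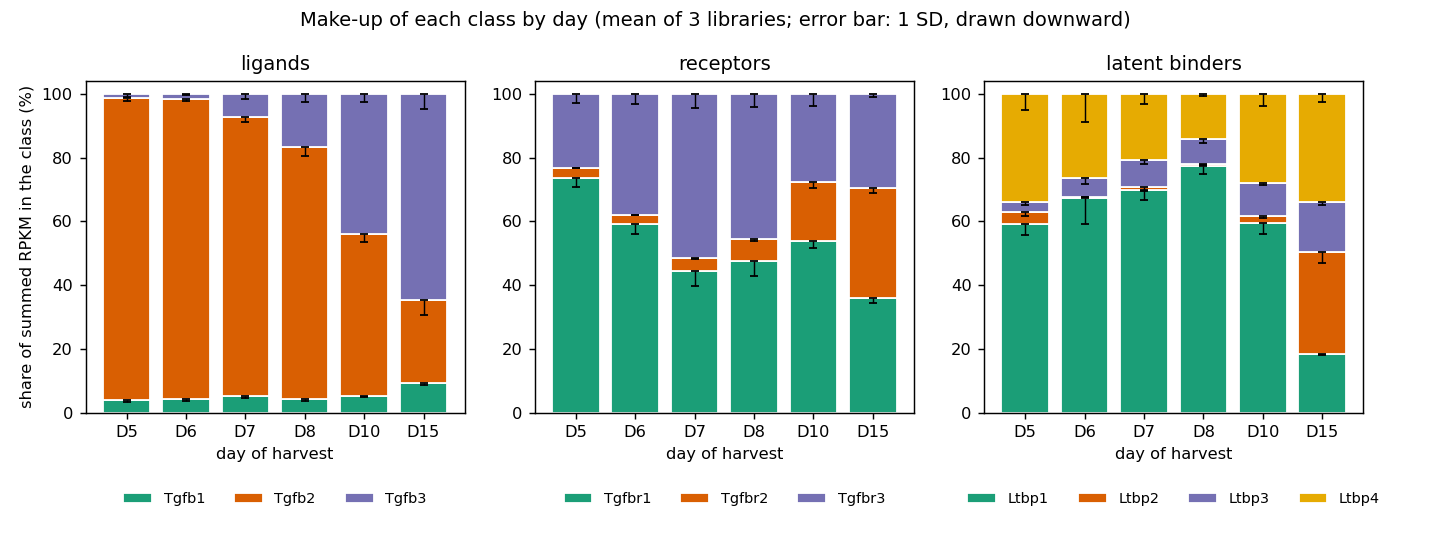
Share of each gene in the summed RPKM of its class (percent, stacked) against day of harvest, as means of 3 libraries with 1 SD drawn downward. The Tgfb2 share shrinks from 94.9% at D5 to 26.0% at D15 while that of Tgfb3 grows to 64.8%, and Ltbp2 and Ltbp4 take most of the latent binder sum at D15.

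Several members were closely correlated over the 18 libraries, but a high correlation did not mean the same change at each step. From D10 to D15, for one, Tgfbr2 rose by 0.94 ± 0.09, while Tgfb3 changed by 0.00 ± 0.15 and Ltbp1 by -0.07 ± 0.09. From the highest down, the Pearson correlation of log2 CPM was 0.988 between Tgfbr2 and Ltbp3, 0.970 between Tgfb3 and Ltbp1 and 0.964 between Tgfbr2 and Ltbp1. It was 0.946 between Tgfb3 and Tgfbr2, 0.937 between Ltbp3 and Ltbp4, and 0.935 between Ltbp2 and Ltbp4. It was -0.954 between Tgfb2 and Ltbp2 and -0.874 between Tgfb2 and Ltbp4. Ltbp2 had only 6 to 35 counts a day from D5 to D8, so its correlations rest largely on D10 and D15. Libraries of a day share that day, so the correlations are descriptions of 6 time points, and for some members many other genes were closely correlated. Among the 6191 other genes with day means at least 1 log2 unit apart, 1121 had a correlation of at least 0.9 with Ltbp3 and 12 with Tgfbr3.

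The genes most like a member were taken by the highest correlation, for the 9 members other than Tgfbr1, whose day means spanned under 1 log2 unit. For Tgfb2 they were Gpc6, a glypican gene (0.976), and Snrnp35, of the minor spliceosome (0.973). Gpc6 went from 91.0 ± 5.37 CPM at D5 through 149.7 ± 15.9 at D8 to 32.2 ± 4.25 at D15. For Tgfb3 they were the collagen gene Col9a2 (0.991) and the kinase gene Syk (0.988), and for Tgfb1 B3gnt9-ps (0.972) and Shisa5 (0.971). For Tgfbr2 they were Plxnb2, a semaphorin receptor gene (0.994), and Qsox1 (0.993), and for Tgfbr3 Taf9b (0.942) and Zadh2 (0.933). For Ltbp1 they were Ptn, of the growth factor pleiotrophin, and Fbln2, of a matrix fibulin (both 0.993). For Ltbp2 they were the protease inhibitor gene Timp2 (0.983) and Osr1 (0.978), a zinc finger gene of lateral mesoderm. Osr1 had 5.38 ± 1.62 CPM at D10 and 129 ± 13.3 at D15. For Ltbp3 they were the splicing regulator gene Mbnl1 (0.993) and Ctsa (0.991), and for Ltbp4 Zic1 (0.989) and Ndufa4l2 (0.988). Through D8 the day means of Zic1 and Ndufa4l2 were near the floor, at most 0.590 and 0.569 CPM, while those of Ltbp4 were 11.8 to 20.0.

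Other genes of the pathway were read from 6 lists, in which 43 genes held 45 places because Smad7 and Skil were in both the inhibitor and the target list. Between D5 and D15, 40.3% of all genes were called higher and 37.7% lower, and the median change was 0.03. Signal transducers were divided, with 3 of 6 risen and 3 fallen (median 0.22). Eng, the co-receptor gene endoglin, rose by 3.17 ± 0.17 (adjusted p = 2.19e-16). The type I receptor genes Acvrl1 (ALK1) and Acvr1 (ALK2) rose by 3.88 ± 0.27 and 1.18 ± 0.09. Smad2, Smad3 and Smad4, named after their values were seen, fell by 0.75 ± 0.06, 0.87 ± 0.08 and 0.83 ± 0.06 (adjusted p = 3.18e-12, 5.83e-11 and 2.77e-13).

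Of 8 inhibitors of the SMAD pathway 4 rose, 2 fell and 2 did not pass (median 0.19). Skil, which encodes the SMAD corepressor SnoN, rose by 1.02 ± 0.08 (adjusted p = 2.52e-12). Smurf1, a ubiquitin ligase gene, and Tgif1, a corepressor gene, fell by 0.74 ± 0.08 and 1.20 ± 0.10. Smurf2 and Smad7 were named after their values were seen. Of the 4 rises, that of Smurf2 was 0.18 ± 0.07 and was lost with total counts alone (0.02, adjusted p = 0.821) or without MR19 or MR20 of D5 or MR35 of D15 (each 0.16). Smad7, the feedback inhibitor gene, had 60.5 ± 10.1 CPM at D5 and 69.7 ± 10.9 at D15 (0.20 ± 0.15, adjusted p = 0.217), and passed without MR21 of D5 or MR36 of D15 (0.34 and 0.33).

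Of the 8 listed genes known as targets of TGF-beta, 7 were higher at D15 and Smad7 did not pass the threshold (median 3.28). None of the 8 fell by edgeR, at an unadjusted p under 0.05, by DESeq2 or by limma-voom, a count of 0 in each. The 8 were chosen with earlier results of these data known, and targets outside the list were not counted. Pmepa1, a membrane protein gene that dampens SMAD activation, rose by 4.52 ± 0.22 and the metalloprotease inhibitor gene Timp1 by 3.73 ± 0.19. Tgfbi, named after its values were seen, peaked earlier, with 307 ± 44.3 CPM at D10 and 70.5 ± 13.1 at D15. These genes answer to other signals too, and which signal moved them was not tested.

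All 11 tested genes for processing and activation of the latent complex rose (median 2.38), and Itgb6 and Mmp9 had too few counts to be tested. The protease genes Mmp2 and Mmp14 rose by 3.53 ± 0.07 (adjusted p = 2.38e-26) and 2.59 ± 0.07, and Itgav, the integrin chain gene that recognises latent TGF-beta, by 1.97 ± 0.07. All 5 genes of the microfibril and matrix list rose (median 2.01). Emilin1 rose by 3.32 ± 0.11, Fbn2, of fibrillin-2, by 1.01 ± 0.08 and Adamtsl2, whose protein binds LTBP1, by 7.52 ± 0.48. Adamtsl2 had only 6 counts in all at D5 against 964 at D15, so the size of its rise rests on few counts. Of 5 genes of secreted proteins that bind ligands of the wider TGF-beta family, 4 rose and Fst did not pass (median 6.29). Bgn and Dcn, of the proteoglycans biglycan and decorin, rose by 6.29 ± 0.10 (adjusted p = 1.26e-27) and 10.52 ± 0.28. Fmod, of fibromodulin, had 3 counts in all at D5 against 4595 at D15. The ratio per library size was 1863, with a 95% interval of 637 to 9039 that covers counting error only. None of these 3 lists had a gene called lower, by edgeR, at an unadjusted p under 0.05, by DESeq2 or by limma-voom (0 in each).

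**Figure D4:**
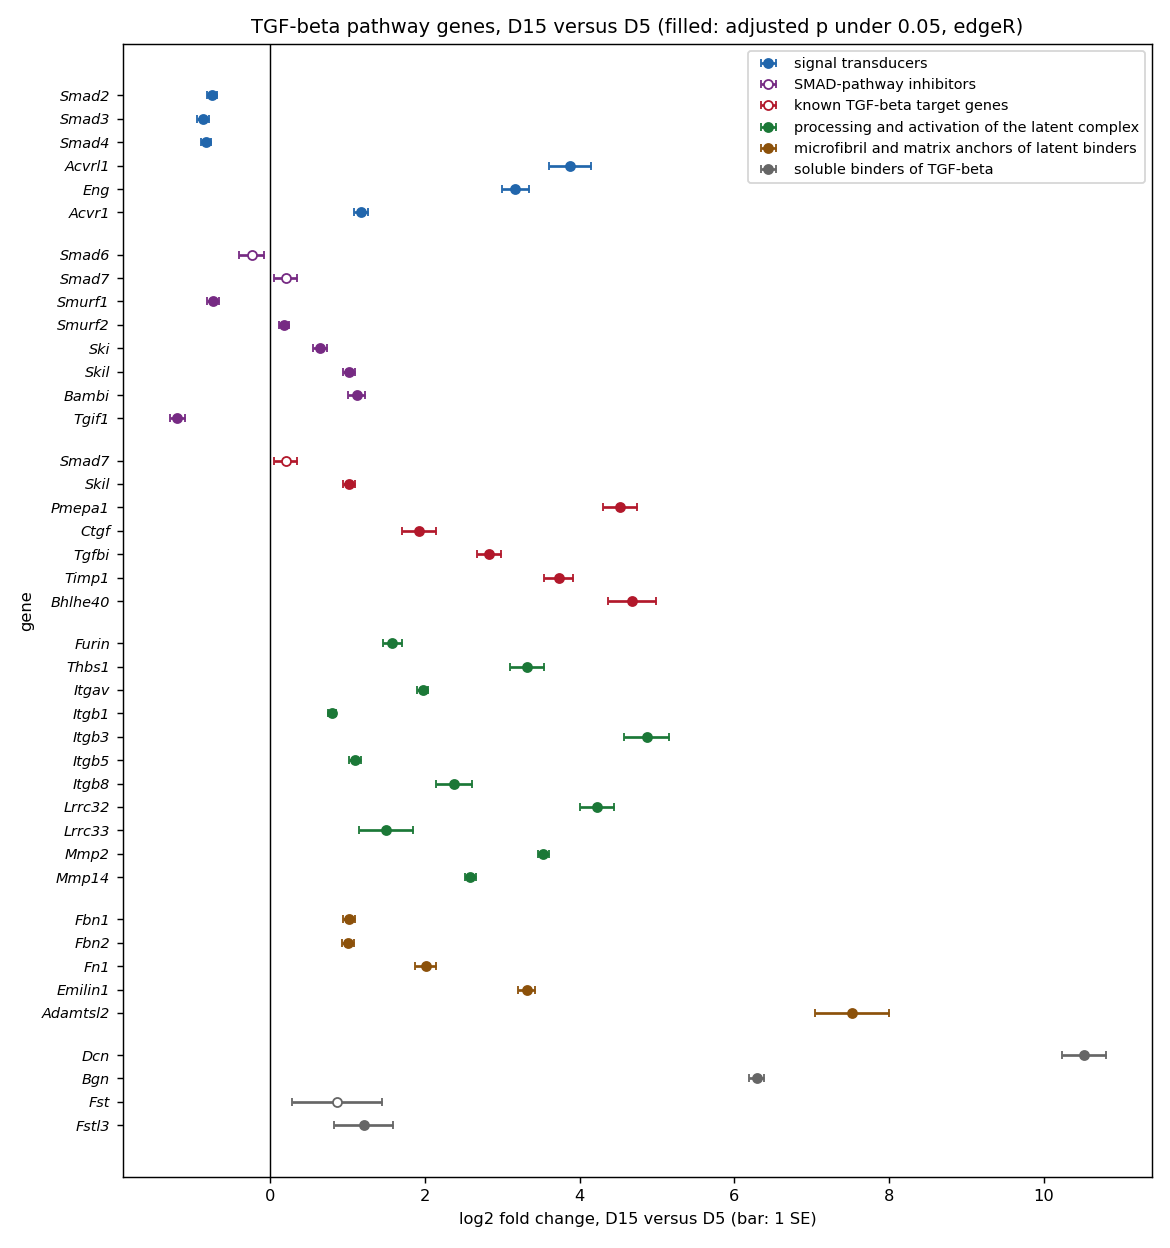
Log2 fold change between D5 and D15 (horizontal axis, bar 1 SE) for tested genes of 6 pathway lists, coloured by list. Filled points passed at an adjusted p under 0.05 by edgeR. Fmod, with 3 counts at D5, and 1 target gene are not drawn. Smad2, Smad3 and Smad4 lie left of 0, and the genes of the activation, matrix and secreted binder lists lie right of 0.

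Markers of other cell types moved along the same days. The 8 fibroblast and mesenchyme markers, which include the binder gene Dcn, summed to 426 to 462 CPM at D5, 15843 to 22950.2 at D8, 24003 to 31307 at D10 and 38248 to 47313 at D15, and all 8 were called higher at D15 than at D5. The 8 cardiomyocyte markers summed to 237 to 289 CPM at D5 and 3385 to 5805 at D15, and all 8 were called higher. The 6 epicardium markers summed to 462 to 477 and 2130.2 to 2360.2 CPM, with 5 called higher and Msln at 0 counts at D5. The 6 endothelium markers summed to 122 to 146 CPM at D5, 386 to 538 at D7 and 297 to 449 at D15, with 5 called higher at D15. Of 5 smooth muscle markers 2 were higher and 3 lower. The 6 blood and macrophage markers summed to at most 19.7 CPM in any library, with Ptprc at 0 throughout and Gata1, Hbb-bh1 and Itgam at 0 at D15. The endoderm list summed to at most 31.0 CPM and the pluripotent and neural list to at most 17.6. The part of the mesenchyme, cardiomyocyte and epicardium markers in the rises of the latent binder, receptor and ligand genes was not tested.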

How the data were processed

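Poly(A) RNA libraries were made with a TruSeq v2 kit, per the labels' protocols. STAR and the build mm10 are named in the submitters' processing notes. How reads were assigned to genes, with which annotation and with or without strand, is not given in the sources used here. Deposited values were raw counts per gene symbol, used as the authors gave them. Of 23337 symbols 5267 had no count, and 3 columns matched no sample of the labels and were not used. Columns were tied to days, not to replicate numbers. Libraries of a day differed beyond sampling noise, with chi-square over its degrees of freedom of 2.16 to 8.82 between pairs over genes with at least 10 counts.

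TMM factors (0.916 to 1.05) and edgeR 4.0.16 (R 4.3.3) quasi-likelihood tests were fitted to all 18 libraries with 1 mean per day and 12 residual degrees of freedom, after edgeR's filter with a minimum count of 10. Each p-value was adjusted over all 13116 tested genes (Benjamini-Hochberg). SEs were computed from the fold change and its F value. CPM and RPKM were computed here from the deposited counts, log2 CPM with a prior count of 2, and exon lengths from GENCODE M21. Of the symbols 20756 matched RefSeq. Alternatives were RLE and upper quartile factors, total counts alone, DESeq2 1.42.0, limma-voom (limma 3.58.1), no filter, a minimum of 1 CPM in 9 libraries, fits restricted to the days being compared, an adjusted p under 0.01 and leaving out each library. The edgeR script was tested on simulated data.

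The members, the pathway lists and the marker lists were chosen with earlier results of these data known. Beside the members, the genes named were the 3 of each pathway list with the smallest p across days, those called against the direction of most of their list between D5 and D15, and the 2 most like each member except Tgfbr1. Others are said to be named after their values were seen. Ctgf, an older symbol of Ccn2, and Lrrc33, of Nrros, were matched under the table's symbols. A planned comparison of the ligand proteins was not made, and protein sequences were not used here. The values of 2 genes, 1 of them in the target list and counted there, are not reported here.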

Additional observations from a re-analysis of the deposited data

How the results depend on the processing

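Each library holds few counts of the lowest genes, so that steps of Ltbp2 before D8 rest on 6 to 35 counts a day. No paired analysis was possible because the columns of the count table carry no replicate numbers, and columns were not paired by their order. The count of members lower at D6 than at D5 went from 1 to 0 with no filter, with the compared days alone, with an adjusted p under 0.01, and over leave-one-out fits it lay between 0 and 1. The count of members lower at D7 than at D6 was 0 to 1 over those fits. The count lower at D15 than at D5 went from 1 to 2, by Tgfbr1, with upper quartile factors, with total counts alone and with the compared days alone. The other counts of members stayed within 1.5 times of those reported in every setting run. Values that changed sign were all near 0 or on few counts, and none was called in either fit. Tgfb1 from D8 to D10 was 0.00 with total counts alone and -0.09 to 0.13 over leave-one-out fits. Tgfb3 from D10 to D15 was 0.01 with RLE factors, DESeq2 and the filter of 1 CPM, 0.00 with limma-voom and -0.08 to 0.10 over leave-one-out fits. Ltbp2 spanned -0.39 to 1.61 over those fits from D6 to D7 and -0.20 to 1.90 from D7 to D8. Ltbp4 spanned -0.16 to 0.27 from D5 to D6 and -0.08 to 0.36 from D6 to D7. Scaling by total counts alone moved the median of all genes from 0.032 to -0.128 between D5 and D15 and from -0.007 to -0.117 between D10 and D15. With an adjusted p under 0.01 the genes called went from 3984 to 2624 between D6 and D7, from 3168 to 1963 between D7 and D8 and from 4093 to 2680 between D8 and D10.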

Other observations

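Within each of the 6 days, the library with the lowest summed cardiomyocyte markers had the highest Tgfbr3 level of the 3 and the highest summed fibroblast and mesenchyme markers. Tgfb1, Tgfbr2 and Ltbp1 were highest in that library on 5 of 6 days, and Tgfb2 was lowest in it on 5 of 6. Ltbp3 was highest in it on 1 day and lowest on 3. That library was the one with the highest number in its column code on each of the 6 days. The cardiomyocyte sums of all 3 libraries fell as this number rose, on each of the 6 days. The days are therefore not independent sightings if these libraries share a source, which the labels do not say. The fit, with 1 mean per day, took no account of such a source. At D5 that library had 237 CPM of cardiomyocyte markers and 82.8 CPM of Tgfbr3, beside 267 to 289 and 62.2 to 65.6 CPM in the other two. The pattern was noticed in these values and was not tested.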
